A study of Homo sapiens with 6 samples.

Results

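The ATP-binding cassette (ABC) transporter genes were described in 786-O, a line of clear cell renal carcinoma, and in its derivative labelled 786-O FOXD1null. Members were all protein-coding genes of the deposited expression table whose symbol begins with ABCA, ABCB, ABCC, ABCD, ABCE, ABCF or ABCG followed by a digit. This rule uses names and no measured value, and it found 29 of the 16922 genes of the table. Counts below are over all 29, and 27 of them are described by name. A further 17 protein-coding ABC symbols of the annotation, among them ABCG1, ABCB11 and ABCC8, were not analysed here.

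786-O is an established human line that lacks a working VHL protein, the part of the ubiquitin ligase that removes hypoxia-inducible factors. The control libraries are labelled parental. The other libraries have the genotype label FOXD1 null, FOXD1 being a forkhead transcription factor of kidney development. Both groups had 3 libraries of RNA from plates at 70% confluency in the same medium, with no further treatment. The sources used here do not say whether the FOXD1null line is a single clone or whether the libraries came from separate cultures. The p-values therefore measure only how these libraries vary, a spread that may be technical. RNA was sequenced in pairs of 150 bp reads, and the values are normalized counts, which are the reads of a gene divided by 1 size factor per library. Recovered reads in genes ran from 30982463 to 37843830 per library, so that a normalized count was close to a read in each of them.

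FOXD1 itself was read first as a check of the labels. Its normalized counts were 432, 498 and 480 in parental 786-O against 1277, 1048 and 901 in the FOXD1null-labelled libraries. This level goes against what a null label leads one to look for, although an altered allele can keep its RNA. The groups are therefore called by their labels throughout, and "higher" and "lower" always refer to the FOXD1null-labelled libraries against 786-O. Of the epithelial carcinoma markers PAX8, PAX2, KRT8, KRT18 and VIM, 5 of 5 were present. Their summed normalized counts were 145896 to 151762 in parental 786-O against 184525 to 214709 in the FOXD1null-labelled libraries, mostly VIM. VIM alone had 115124 to 120950 against 155138 to 175378. PAX8 was higher and PAX2 lower in every FOXD1null-labelled library than in 786-O. KRT8 and KRT18 were above 786-O in FOXD1null replicate 1. In replicates 2 and 3 KRT8 was below 786-O and KRT18 within its range. The proximal tubule markers summed to no more than 141, the single endothelial marker of the table to no more than 13.8 and the single leukocyte marker to no more than 31.7. The 4 of 5 listed fibroblast markers in the table summed to 749.7 to 898 in 786-O against 284 to 437, mostly COL1A1. LUM had 84.6 to 128 in 786-O and 0 in FOXD1null replicates 2 and 3. COL3A1 was also 0 in those 2 libraries, but in 786-O replicates 1, 2 and 3 it had 0, 56.2 and 5.52. The 3 of 5 hepatocyte markers in the table summed to 2687 to 3622 against 8224 to 9029.9, mostly SERPINA1, and the part of these differences in the values of the ABC genes was not tested. In bulk RNA, fewer cells of a type and less RNA per cell cannot be told apart.

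A pair of libraries stood apart in ways that touch the values below. FOXD1null replicate 1 differed from replicates 2 and 3 along exon length. Over 11532 protein-coding genes with a mean of at least 50, its median log2 difference from the other replicates of its group was 0.32 for genes of up to 2 kb of merged exons and -0.22 for genes over 12 kb. For 786-O replicate 1 the same medians were all within 0.01 of 0. The ABC genes are long, with a median of 8.09 kb of merged exons against 5.58 kb for those protein-coding genes, and FOXD1null replicate 1 was the lowest library of its group for 18 of the 29 members, the highest for 9 and between the others for 2. The part of this library in each result was not tested beyond fits without it. 786-O replicate 2 held traces of transcripts that the other parental libraries hardly had, with normalized counts for the liver gene ALB of 1.12, 139 and 7.36 and for FGB of 15.6, 330.0 and 31.3 in 786-O replicates 1, 2 and 3.

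**Figure D1:**
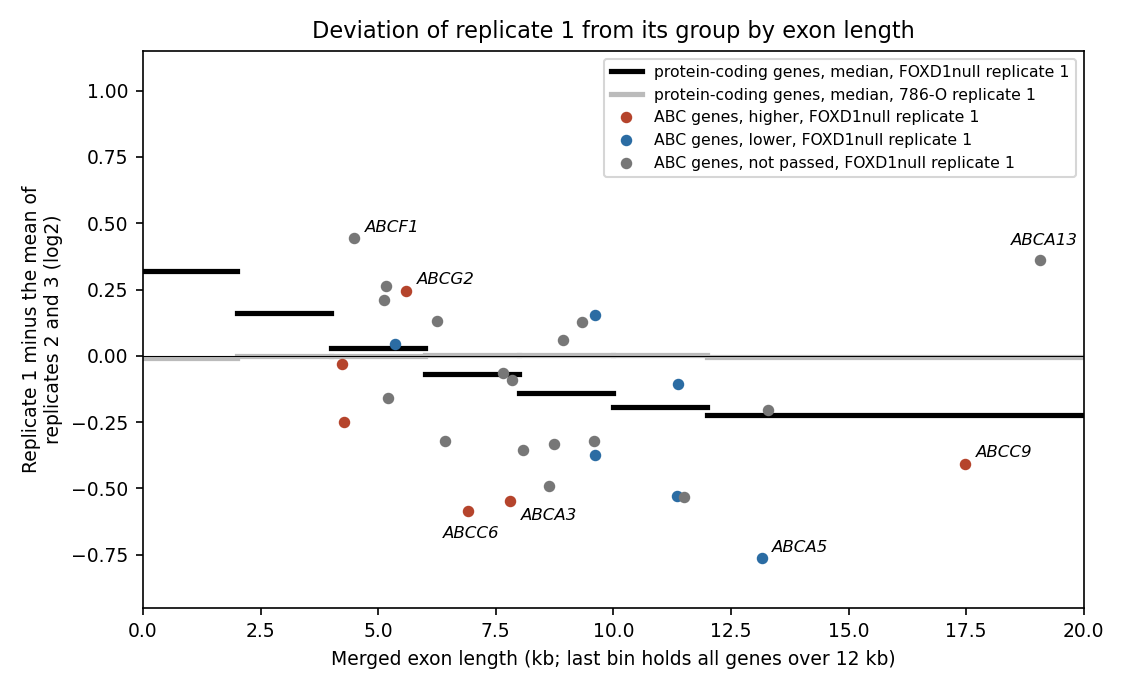
The vertical axis gives the log2 difference of replicate 1 from the mean of replicates 2 and 3 of the same group, and the horizontal axis merged exon length in kb. Black bars are medians of protein-coding genes for FOXD1null replicate 1, which fall from 0.32 to -0.22 with length, grey bars are those for 786-O replicate 1, which stay near 0, and points are the 29 ABC genes in FOXD1null replicate 1.

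ABC proteins couple the binding and hydrolysis of ATP at paired nucleotide-binding domains to the movement of a substrate across a membrane. Subfamilies ABCA and ABCG mostly handle lipids and sterols, ABCB and ABCC export drugs and organic anions or serve mitochondria, ABCD proteins serve peroxisomes and lysosomes, and ABCE and ABCF proteins lack membrane domains and act on ribosomes. In the kidney, several members secrete drugs, conjugates and urate from the proximal tubule, the site from which clear cell carcinoma is held to arise, and ABCB1 in particular is known for drug resistance of these tumours.

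To show what could be read from the start sites of the genes, sequences were taken from RefSeq promoters on GRCh38.p14, in which 25 of the 29 members had an entry. The 250 bases before the start site are given 5′ to 3′ on the gene's own strand for a pair of members that rose and a pair that fell, with matches to the GC box GGGCGG or the CCAAT box on either strand in capitals. ABCA3 (chr16:2340729-2340978, minus strand) rose, and ABCA5 (chr17:69327134-69327383, minus strand) fell.
ABCA3: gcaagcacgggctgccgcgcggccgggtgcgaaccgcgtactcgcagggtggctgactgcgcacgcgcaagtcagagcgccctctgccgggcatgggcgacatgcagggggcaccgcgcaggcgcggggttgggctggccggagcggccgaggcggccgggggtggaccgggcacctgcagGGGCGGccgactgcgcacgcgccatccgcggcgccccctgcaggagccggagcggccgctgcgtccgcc
ABCA5: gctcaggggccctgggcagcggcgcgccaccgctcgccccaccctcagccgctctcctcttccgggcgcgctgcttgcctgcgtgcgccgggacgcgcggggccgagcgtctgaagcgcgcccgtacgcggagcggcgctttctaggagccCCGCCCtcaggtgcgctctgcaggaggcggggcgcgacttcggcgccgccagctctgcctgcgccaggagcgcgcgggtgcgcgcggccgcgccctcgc
Both stretches held 79.2% G and C, with 38 CG dinucleotides before ABCA3 and 42 before ABCA5, and each held a single GC box. ABCC9 (chr12:21941427-21941676, minus strand) rose, and ABCA12 (chr2:215138627-215138876, minus strand, the outer of its start sites) fell.
ABCC9: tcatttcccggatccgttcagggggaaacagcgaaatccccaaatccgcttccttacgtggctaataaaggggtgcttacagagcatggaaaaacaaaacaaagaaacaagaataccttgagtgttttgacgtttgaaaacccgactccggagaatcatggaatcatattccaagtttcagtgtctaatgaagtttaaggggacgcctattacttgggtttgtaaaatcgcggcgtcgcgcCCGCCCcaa
ABCA12: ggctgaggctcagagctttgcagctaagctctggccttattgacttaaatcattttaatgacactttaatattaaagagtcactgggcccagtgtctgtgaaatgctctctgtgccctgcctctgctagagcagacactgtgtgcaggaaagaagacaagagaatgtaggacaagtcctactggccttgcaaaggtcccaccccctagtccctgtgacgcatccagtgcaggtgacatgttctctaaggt
These had less G and C, at 46.0% before ABCC9 and 48.8% before ABCA12, against a median of 58% over all 34943 promoter windows of the table. In the windows shown, which are examples, a gene that rose and a gene that fell were found with each kind of base composition. Windows of the same gene can differ, with 36.4% G and C before the inner start site of ABCA12.

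FOXD1 belongs to the forkhead factors, whose core motif is GTAAACA. On either strand, these letters stood in 2 of the 36 windows of the members, both times within the 250 upstream bases. They stood in 3.42% of all windows, which were searched over their whole length, as they were for the other motifs below. None of the 15 windows of called members held them, but these windows covered only 9 of the 12 called members. The matches were before ABCE1 (chr4:145098061-145098089, plus strand) and ABCF1 (chr6:30571250-30571278, plus strand), shown as 29-base stretches with the motif, which lies on the opposite strand, in capitals.
ABCE1: gaatgcatcTGTTTACgctaggaccacgc
ABCF1: taaacgccatgTGTTTACgcgactggagc
The match began at position -241 from the start of ABCE1 and at -181 from that of ABCF1. The GC box stood in 21 of the 36 windows against 44.9% of all windows, and CCAAT in 7 of the 36 against 34.6%. A match is a description of letters and not of a bound site, and no match says only that the letters were not in this window.

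Of the 29 members, 6 passed the test as higher, 6 as lower and 17 did not pass. The test was limma on log2(normalized count + 1), with p-values adjusted over the 16901 genes whose mean reached 10 and a threshold of 0.05. Over all genes 33.4% of genes passed, 16.3% as higher and 17.1% as lower, so that calls in both directions were common among all genes. Groups did not overlap for 16 of the 29 members and for 49.0% of all genes. The median log2 fold change was -0.03 over the members and -0.01 over all genes. A log2 difference of at least 1 was reached by 4 members that rose, against 3.21% of all genes, and by 3 that fell, against 5.22%. With 3 libraries against 3, an exact permutation test on a single gene cannot give a two-sided p below 0.1. Without FOXD1null replicate 1, 10 members passed as higher and 11 as lower, where 27.4% and 27.6% of all genes passed, and the 12 members called with all libraries were among them. Without 786-O replicate 3, 3 members passed as higher, with ABCC6 and ABCB10 among those lost, where 10.7% of all genes passed as higher and 10.8% as lower. With libraries scaled to equal totals, 5 members passed as higher and 9 as lower, beside 2040 higher (12.1%) and 3873 lower (22.9%) among all genes, where the size factors gave 2751 and 2888.

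**Figure D2:**
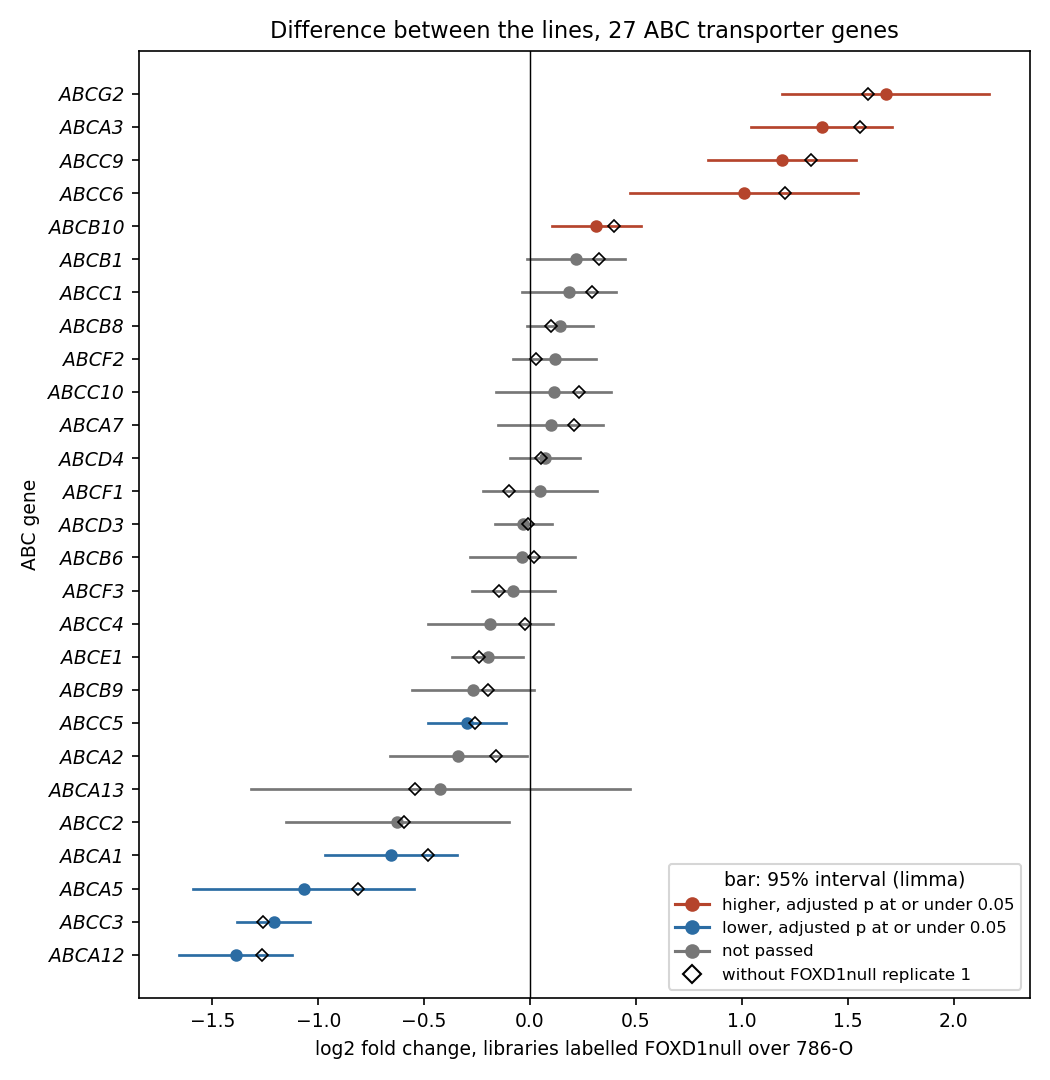
Points give the log2 fold change of the FOXD1null-labelled libraries over 786-O (horizontal axis) for 27 ABC genes, with 95% intervals from limma as bars, and open diamonds give the value without FOXD1null replicate 1. The range runs from ABCA12 at -1.39 to ABCG2 at 1.68, and members not called lie between -0.63 and 0.22.

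Levels differed far more between members than between the lines. Per kb of merged exons, the highest mean normalized counts in 786-O were those of ABCA1 at 1103, ABCF1 at 1053, ABCA2 at 990 and ABCF2 at 846. The lowest were ABCA13 at 1.61, ABCG2 at 4.58, ABCC6 at 7.92 and ABCA5 at 10.7 per kb. In the FOXD1null-labelled libraries, ABCF1 came first at 1099.7 per kb, followed by ABCF2 at 921, ABCA2 at 794 and ABCA1 at 710 per kb. ABCA3 moved from rank 20 to rank 12 of the 29, ABCC3 from rank 10 to rank 15 and ABCA12 from rank 17 to rank 23. The 4 members that rose by at least 1 on the log2 scale had ranks of 20, 25, 27 and 28 in 786-O, and after the rise ABCG2 and ABCC6 had 15.1 and 16.1 per kb.

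**Figure D3:**
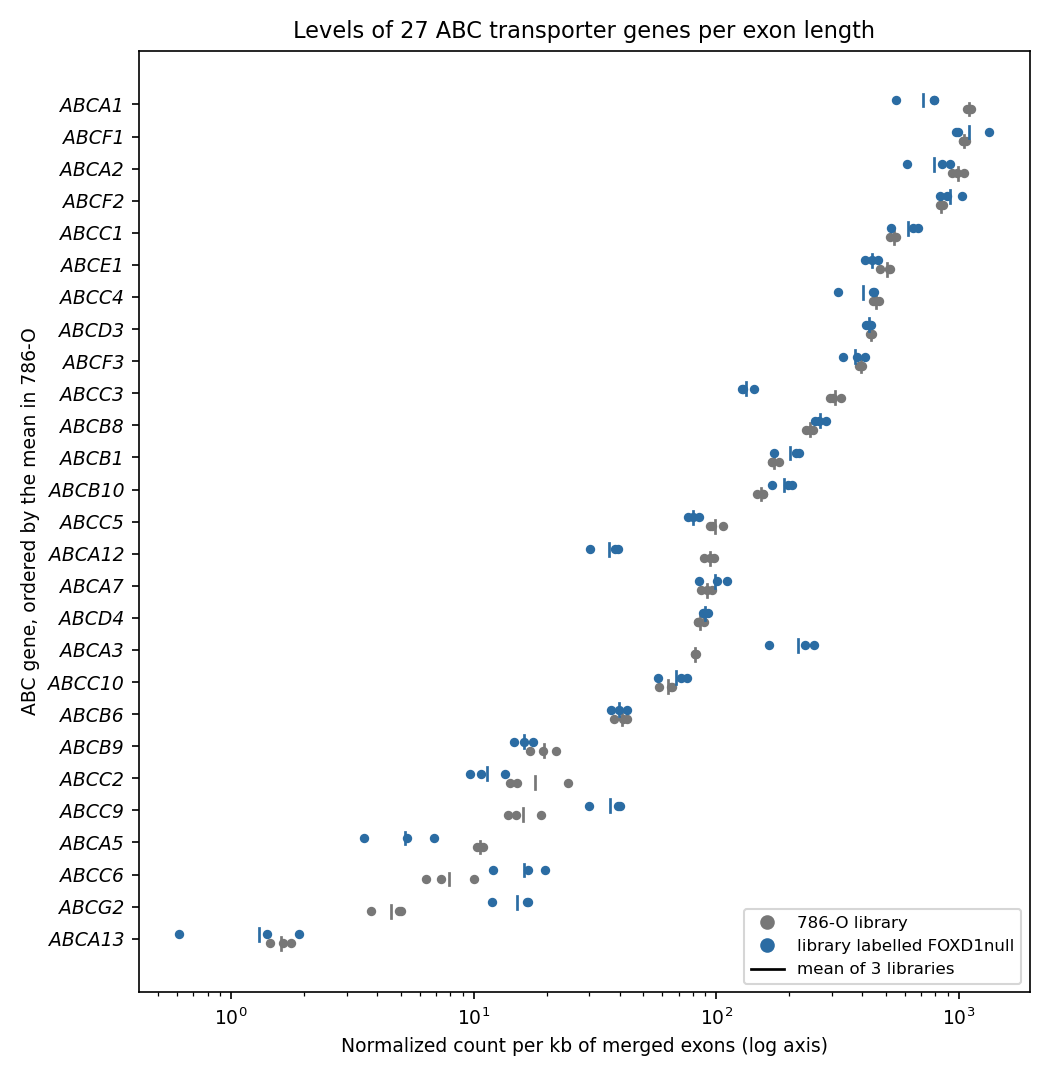
For 27 ABC genes, each point is a library's normalized count divided by merged exon length in kb, on a log axis, with 786-O in grey, the FOXD1null-labelled libraries in blue and ticks at the means of 3 libraries. ABCA1 leads in 786-O at 1103 per kb and ABCA13 is last in both lines, at 1.61 and 1.31 per kb.

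Of the 7 tested lipid transporters of subfamily ABCA, 3 fell, 1 rose and 3 did not pass, where 17.1% of all genes fell and 16.3% rose. ABCA1 (ENSG00000165029, chr9:104781006-104928155), which loads cholesterol and phospholipid onto apolipoprotein A-I, had normalized counts of 12580, 12213 and 12757 in parental 786-O against 6219, 8998 and 8949 in the FOXD1null-labelled libraries. All FOXD1null-labelled libraries lay below all of 786-O, and replicate 1 lay below its own group. ABCA1 was 1.55-fold lower by the ratio of means, with a log2 fold change of -0.66 (SE 0.13, limma adjusted p = 0.0069) and of -0.48 without FOXD1null replicate 1. It remained by counts per kb among the leading members of both lines.

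ABCA12 (ENSG00000144452, chr2:214931542-215138626), which carries glucosylceramide into the lamellar granules of keratinocytes, had 942, 858 and 908 normalized counts in parental 786-O against 289, 380 and 369 in the FOXD1null-labelled libraries. The groups were far apart against their spread, at 902 ± 42.4 and 346 ± 49.7 (SD, n = 3). Its log2 fold change was -1.39 (SE 0.12, limma adjusted p = 1.2e-04) and -1.27 without FOXD1null replicate 1, and the means differed 2.61-fold. ABCA5 (ENSG00000154265, chr17:69244311-69327244), a transporter of late endosomes and lysosomes, had 136, 143 and 142 normalized counts in parental 786-O against 46.3, 69.7 and 90.3 in the FOXD1null-labelled libraries. Its parental libraries were nearly alike, while the other libraries differed from each other about as much as the highest of them differed from 786-O. The log2 fold change was -1.07 (SE 0.23, limma adjusted p = 0.0080) and -0.81 without FOXD1null replicate 1. Of its 13158 exon bases, 318 are shared with ABCA10, a gene not analysed here.

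ABCA3 (ENSG00000167972, chr16:2275881-2340746), the phospholipid transporter of the lamellar bodies of lung alveolar cells, rose. Its normalized counts were 646, 636 and 639 in parental 786-O against 1291, 1975 and 1806 in the FOXD1null-labelled libraries. The lowest FOXD1null-labelled library was replicate 1, and it still held more than any parental library. ABCA3 was 2.64-fold higher, with a log2 fold change of 1.38 (SE 0.14, limma adjusted p = 3.3e-04) and of 1.56 without replicate 1. The pseudogene ABCA17P (chr16:2339150-2426699, plus strand) starts within ABCA3 on the opposite strand and shares no exon base with it in this annotation. It had 25.7, 30.8 and 23.9 normalized counts in parental 786-O against 75.5, 59.6 and 80.6 in the FOXD1null-labelled libraries, a log2 fold change of 1.39 (SE 0.20, limma adjusted p = 0.0014). The sources used here give no strand setting for the counting, and without it opposite strands cannot be told apart.

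The remaining ABCA members did not pass. ABCA2, an endosomal and lysosomal transporter, had 11381 ± 681 normalized counts in parental 786-O against 9126 ± 1855 in the FOXD1null-labelled libraries (SD, n = 3), with a 95% interval of the log2 difference from -0.66 to -0.01. Without FOXD1null replicate 1 the difference was -0.16 and passed. ABCA7, which takes part in phospholipid handling and phagocytosis, had 833 to 924 normalized counts in parental 786-O against 811 to 1066 in the FOXD1null-labelled libraries. It passed as higher only without FOXD1null replicate 1, at 0.21. ABCA13, the longest member, had 27.6 to 33.5 and 11.7 to 36.4 normalized counts, levels at which a difference of this size was not detectable.

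Genes of sterol handling that work with ABCA1 were taken as a list of 21, of which 19 were tested. Of these, 4 rose, 6 fell and 9 did not pass, where 16.3% of all genes rose and 17.1% fell. The median log2 fold change was -0.07 against -0.01 over all genes. NCEH1, which hydrolyses cholesterol esters, rose by 0.75 and the HDL receptor SCARB1 by 0.53 on the log2 scale (limma adjusted p = 2.2e-04 and 7.8e-04). RXRA, the partner of the liver X receptors that switch on ABCA1, fell by 0.60 and NPC2, which hands on cholesterol in the lysosome, fell by 0.53 (limma adjusted p = 5.1e-04 and 0.0021). The liver X receptor genes NR1H2 and NR1H3 did not pass, with 2023 to 2101 against 2040 to 2435 normalized counts and 212 to 219 against 186 to 202. The count of rises became 2 without 786-O replicate 3 and 7 without FOXD1null replicate 1, where 10.7% and 27.4% of all genes rose.

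**Figure D4:**
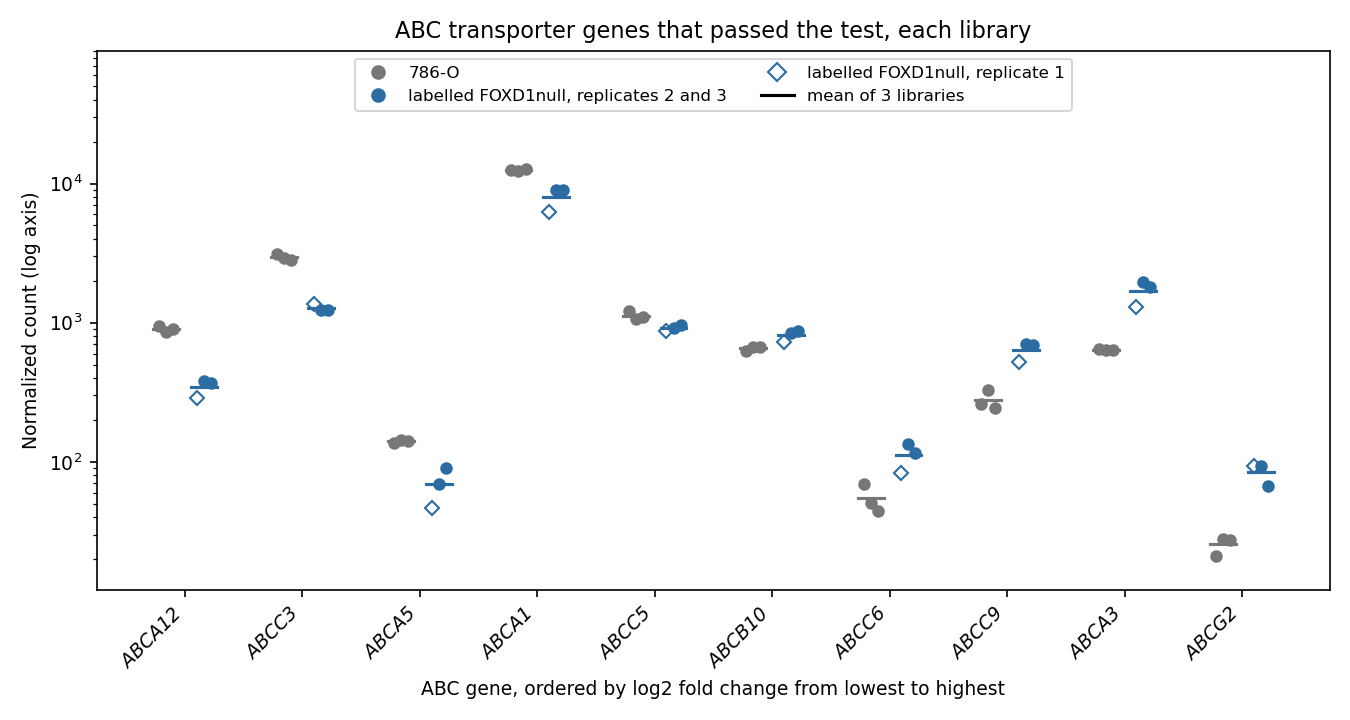
Normalized counts on a log axis of 10 ABC genes that passed, in each library, with 786-O in grey, the FOXD1null-labelled libraries in blue, replicate 1 of that group as an open diamond and bars at the means. ABCA12, ABCC3 and ABCA3 show the widest gaps against their spread, and open diamonds are the lowest of their group for ABCA1, ABCA3, ABCA5, ABCA12, ABCB10, ABCC5, ABCC6 and ABCC9.

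Of the exporters of drugs and organic anions, ABCG2 rose, ABCC3 and ABCC5 fell, and ABCB1, ABCC1, ABCC2, ABCC4 and ABCC10 did not pass. ABCG2 (ENSG00000118777, chr4:88090150-88231628) encodes the breast cancer resistance protein, which exports drugs and urate. It had 21.2, 28.1 and 27.6 normalized counts in parental 786-O against 93.8, 93.0 and 67.0 in the FOXD1null-labelled libraries. These levels were low in both lines, yet no library of one group reached the other. ABCG2 was 3.30-fold higher, the largest ratio among the 29 members, with a log2 fold change of 1.68 (SE 0.21, limma adjusted p = 7.5e-04) and of 1.60 without FOXD1null replicate 1.

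ABCC3 (ENSG00000108846, chr17:50634777-50692253), which exports glucuronides and bile acids across the basolateral membrane, had 3133, 2903 and 2839 normalized counts in parental 786-O against 1372, 1236 and 1228 in the FOXD1null-labelled libraries. The spread within either line was small beside the gap. The log2 fold change was -1.21 (SE 0.08, limma adjusted p = 3.5e-05) and -1.26 without FOXD1null replicate 1. The means differed 2.31-fold, and the adjusted p was the smallest of the family. ABCC5 (ENSG00000114770, chr3:183919934-184017939), an exporter of cyclic nucleotides, had 1210, 1071 and 1095 normalized counts in parental 786-O against 870, 911 and 964 in the FOXD1null-labelled libraries. Its groups did not overlap but stood close to each other. The log2 fold change was -0.30 (SE 0.08, limma adjusted p = 0.022), and the call was lost when 786-O replicate 1 or 3 or FOXD1null replicate 2 was left out, with an adjusted p of up to 0.10.

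ABCB1, which encodes the multidrug exporter P-glycoprotein, had 1087, 1085 and 1161 normalized counts in parental 786-O against 1113, 1406 and 1374 in the FOXD1null-labelled libraries. Replicates 2 and 3 lay above every parental library and replicate 1 among them. The 95% interval of its log2 difference ran from -0.01 to 0.45, and without FOXD1null replicate 1 the difference was 0.32 and passed (limma adjusted p = 9.2e-05). ABCC1, an exporter of glutathione conjugates, had 4721 ± 148 against 5391 ± 697 normalized counts (SD, n = 3), an interval from -0.04 to 0.41, and 0.29 without that replicate (limma adjusted p = 1.5e-05). For ABCC4, which exports cyclic nucleotides and prostaglandins, the values were 3888, 3806 and 4060 against 2742, 3871 and 3834 normalized counts. There the low value of replicate 1 alone set the difference, with an interval from -0.48 to 0.11, and the value without that library was -0.02. ABCC10 had 471 to 531 against 467 to 615 normalized counts and passed as higher only without FOXD1null replicate 1.

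ABCC2, the apical exporter of conjugates known from liver and proximal tubule, had 110.5, 191 and 119 normalized counts in parental 786-O against 84.1, 75.8 and 106 in the FOXD1null-labelled libraries. The parental libraries lay above the others without overlap, but replicate 2 of 786-O stood well above the other parental libraries. It was the same library that held ALB at 139 and FGB at 330.0 normalized counts. The log2 fold change was -0.63 (limma adjusted p = 0.068) and -0.38 without that library. Without FOXD1null replicate 1 it was -0.60 and passed as lower (limma adjusted p = 0.024), and the part of those traces in its level was not tested.

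Of 27 tested genes of xenobiotic sensing and conjugation, which feed substrates to these exporters, 5 rose, 9 fell and 13 did not pass. Over all genes 16.3% rose and 17.1% fell, and the median log2 fold change of the list was -0.04. The aryl hydrocarbon receptor gene AHR rose by 0.73 and the glutathione transferase GSTO1 by 0.39 on the log2 scale (limma adjusted p = 0.0037 and 0.020), the latter not passing with equal library totals or without 786-O replicate 1 or 3, with an adjusted p of up to 0.087. The glucuronosyltransferase UGT2B7 fell by 1.59 and the glutathione transferase GSTM3 fell by 1.37 on that scale (limma adjusted p = 0.0072 and 4.7e-04). UGT2B7 was low throughout, at 40.2 to 49.9 normalized counts in parental 786-O against 10.7 to 23.7 in the FOXD1null-labelled libraries. The count of rises became 3 with equal library totals and without 786-O replicate 1 or 3, and the count of falls became 5 without 786-O replicate 3.

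ABCC9 and ABCC6 rose, the members of subfamily ABCC that are not classical drug exporters. ABCC9 (ENSG00000069431, chr12:21797389-21942543) encodes a sulfonylurea receptor, the regulatory subunit of ATP-sensitive potassium channels. It had 262, 330.0 and 243 normalized counts in parental 786-O against 523, 699 and 688 in the FOXD1null-labelled libraries. All FOXD1null-labelled libraries exceeded the highest parental one, which was replicate 2. The log2 fold change was 1.19 (SE 0.15, limma adjusted p = 7.8e-04) and 1.33 without FOXD1null replicate 1, and the means differed 2.29-fold.

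Among 7 tested channel partners and scaffolds of ABCC proteins, 1 rose and 3 fell, beside 16.3% and 17.1% of all genes. The median log2 fold change of the list was 0.00. KCNJ8, which encodes a pore subunit that assembles with the product of ABCC9, moved the other way, with 52.5, 63.5 and 65.3 normalized counts in parental 786-O against 26.9, 0 and 0.97 in the FOXD1null-labelled libraries. Nearly all of its reads in the second line were thus in replicate 1. It passed as lower with limma (adjusted p = 0.020) but not with DESeq2 (adjusted p = 0.21), nor without any single library other than FOXD1null replicate 1, with an adjusted p of up to 0.068. PDZK1, a scaffold of apical transporters, had 3392, 2996 and 3200 against 1167, 710.4 and 744 normalized counts, a log2 fold change of -1.91 (limma adjusted p = 1.7e-04). RDX, which ties membrane proteins to actin, rose by 0.20 on the log2 scale (limma adjusted p = 0.033). It did not pass with equal library totals or with the replicate number as a block (limma adjusted p = 0.21 and 0.097). Nor did it pass when any library other than FOXD1null replicate 1 was left out, with an adjusted p of up to 0.14.

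ABCC6 (ENSG00000091262, chr16:16149565-16223522), whose loss lowers extracellular pyrophosphate and causes pseudoxanthoma elasticum, had 69.2, 50.8 and 44.2 normalized counts in parental 786-O against 83.0, 135 and 116 in the FOXD1null-labelled libraries. The highest parental library and the lowest FOXD1null-labelled library came near each other. The log2 fold change was 1.01 (SE 0.23, limma adjusted p = 0.012), without 786-O replicate 3 it was 0.87 with an adjusted p of 0.0502, and without FOXD1null replicate 1 it was 1.20. ABCC6 has near-identical partial copies, so its reads are uncertain. The transcript of ABCC6P1 (chr16:18571276-18592716) was 98.6% identical to that of ABCC6 over 1177 aligned columns, and that of ABCC6P2 (chr16:14820792-14824669) 99.6% over 255. To show how few bases tell the copies apart, bases 866 to 925 of the ABCC6 transcript are set beside the same stretch of ABCC6P1, with the 2 differing bases in capitals.
ABCC6: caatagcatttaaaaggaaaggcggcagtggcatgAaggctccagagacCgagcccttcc
ABCC6P1: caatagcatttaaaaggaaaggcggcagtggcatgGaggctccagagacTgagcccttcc
ABCC6P1 had 11.2, 13.6 and 9.20 normalized counts in parental 786-O against 15.1, 23.2 and 18.5 in the FOXD1null-labelled libraries, and ABCC6P2 had 23.4, 24.5 and 22.1 against 39.9, 35.4 and 30.1. Neither passed (limma adjusted p = 0.13 and 0.080), though for both copies every FOXD1null-labelled library exceeded every parental one. Reads that match a copy equally well are not unique and were left out by counting unique reads, so ABCC6 may hold fewer reads than its RNA gave.

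In a list of 5 tested genes of pyrophosphate and phosphate handling around ABCC6, 2 rose and none fell. Over all genes 16.3% rose and 17.1% fell, and the median log2 fold change of the list was 0.32. NT5E, which makes adenosine from AMP, had 701, 967 and 901 normalized counts in parental 786-O against 2685, 3489 and 3667 in the FOXD1null-labelled libraries, a log2 fold change of 1.94 (limma adjusted p = 9.0e-05). ENPP1, which makes pyrophosphate from ATP, rose by 0.50 on the log2 scale (limma adjusted p = 0.011). DESeq2 called 4 of the 5 as higher, as did limma without FOXD1null replicate 1, while limma without 786-O replicate 1 called 1. In that order 2930, 4635 and 1798 of the 16901 genes were called higher.

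Of the mitochondrial members of subfamily ABCB, ABCB10 rose and ABCB8 and ABCB6 did not pass. ABCB10 (ENSG00000135776, chr1:229516582-229558707), which supports heme synthesis, had 628, 667 and 667 normalized counts in parental 786-O against 724, 845 and 876 in the FOXD1null-labelled libraries. The groups did not overlap. It was higher by 0.31 on the log2 scale (SE 0.09, limma adjusted p = 0.031), and it did not pass with equal library totals or without any of 5 of the libraries in turn, with an adjusted p of up to 0.12. The difference was 0.40 and passed without FOXD1null replicate 1.

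ABCB8, of the inner mitochondrial membrane, had 2269 ± 68.3 against 2503 ± 137 normalized counts (SD, n = 3), and its log2 difference had an interval from -0.02 to 0.30. ABCB6, linked to porphyrin transport, had 198 to 223 against 192 to 222 normalized counts, and 54.6% of its exon bases are shared on the same strand with a second annotated gene. ABCB9, a peptide transporter of lysosomes, had 228 to 290 against 194 to 233 normalized counts. On the opposite strand its exons overlap an unnamed long non-coding RNA gene by 20.7% of their bases, OGFOD2 by 12.5% and ARL6IP4 by 12%. Of 22 tested genes of mitochondrial iron-sulfur and heme metabolism, 2 rose and 3 fell, beside 16.3% and 17.1% of all genes. The median log2 fold change of the list was 0.05. The iron importer SLC25A28 rose by 0.54 and the scaffold ISCU by 0.33 on the log2 scale, while the heme exporter FLVCR1 fell by 0.39 and ALAD, of heme synthesis, fell by 0.38 (limma adjusted p = 8.6e-04, 0.0069, 0.0065 and 0.0082). Without FOXD1null replicate 1 the list held 5 rises and 8 falls, and with equal library totals 5 falls. The shares of all genes were 27.4% higher and 27.6% lower without that library, and 22.9% lower with equal totals.

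In subfamily ABCD, ABCD3 and ABCD4 did not pass. ABCD3, a peroxisomal importer of branched and dicarboxylic acids, had 3328 ± 38.5 normalized counts in parental 786-O against 3256 ± 86.2 in the FOXD1null-labelled libraries (SD, n = 3), with an interval of the log2 difference from -0.17 to 0.10. ABCD4, which releases cobalamin from lysosomes, had 747 to 796 against 788 to 824 normalized counts.

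Of 25 tested genes of peroxisome import and fatty acid oxidation, 4 rose, 3 fell and 18 did not pass. Among all genes 16.3% rose and 17.1% fell, and the median log2 fold change of the list was -0.06. ACSL1, which activates long chain fatty acids, had 1367, 1450 and 1524 normalized counts in parental 786-O against 3387, 3928 and 3780 in the FOXD1null-labelled libraries, a log2 fold change of 1.35 (limma adjusted p = 3.2e-05). AMACR, a racemase of branched chain oxidation, had 961, 854 and 838 against 336, 333 and 310 normalized counts, a log2 fold change of -1.43 (limma adjusted p = 3.5e-05). PEX16, of peroxisome assembly, rose by 0.44 and EHHADH, a peroxisomal oxidation enzyme, fell by 0.37 on that scale (limma adjusted p = 0.047 and 0.019). PEX16 was not called by edgeR, with TMM scaling, with equal library totals or without 786-O replicate 2 or 3 or FOXD1null replicate 2, with an adjusted p of up to 0.17. Among the peroxins of the list, which form the import machinery, PEX16 was the single one to pass. With equal library totals 2 genes of the list rose and 7 fell, without FOXD1null replicate 1 8 fell, and without any of the parental libraries in turn 1 fell. Of all genes, 12.1% rose and 22.9% fell with equal totals, and 27.6% fell without FOXD1null replicate 1. Without 786-O replicates 1, 2 and 3 in turn, 1823, 2029 and 1830 of the 16901 genes fell. The count of rises in the list became 2 without 786-O replicate 2, 786-O replicate 3 or FOXD1null replicate 2. In those fits 1985, 1810 and 1965 of the 16901 genes rose.

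ABCE1 and the ABCF genes, which act on ribosomes, did not pass with all libraries. ABCE1, which splits ribosomes for recycling, had 2971, 3225 and 3250 normalized counts in parental 786-O against 2911, 2742 and 2576 in the FOXD1null-labelled libraries. Its groups did not overlap, with a log2 difference of -0.20 and an interval from -0.37 to -0.03 (limma adjusted p = 0.068). It was -0.24 and passed as lower without FOXD1null replicate 1 (limma adjusted p = 5.3e-04). ABCF1, a factor of translation initiation, had 4691, 4693 and 4815 against 6001, 4462 and 4369 normalized counts. FOXD1null replicate 1 alone lay above the parental libraries, the interval ran from -0.22 to 0.32, and without it the difference was -0.10 and passed as lower (limma adjusted p = 0.036). ABCF2 had 4365 ± 71.2 against 4750 ± 534 and ABCF3 2026 ± 35.2 against 1925 ± 201 normalized counts (SD, n = 3), with intervals from -0.08 to 0.31 and from -0.28 to 0.12. Without FOXD1null replicate 1, ABCF3 passed as lower at -0.15 (limma adjusted p = 0.030) and ABCF2 did not pass. ABCF2 shares 37.1% of its exon bases with a read-through gene.

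Of 16 tested genes of ribosome recycling and translation control, 6 rose, none fell and 10 did not pass. Among all genes 16.3% rose and 17.1% fell, and the median log2 fold change of the list was 0.09. The ubiquitin ligase of collided ribosomes ZNF598 had 2752, 2617 and 2798 normalized counts in parental 786-O against 4513, 4512 and 4080 in the FOXD1null-labelled libraries, a log2 fold change of 0.68 (limma adjusted p = 2.6e-04). EIF2S3, a subunit of the factor that brings the initiator tRNA, rose by 0.34 on that scale (limma adjusted p = 0.0036). The count of 6 became 3 with equal library totals and without 786-O replicate 1 or 2, and without FOXD1null replicate 1 another 4 genes of the list passed as lower. Of all genes, 12.1% rose with equal totals and 27.6% fell without FOXD1null replicate 1. Without 786-O replicate 1 or 2, 1798 and 1985 of the 16901 genes rose.

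A further 3 ABC proteins carry other symbols. The peptide transporter genes TAP1 and TAP2, which supply antigen presentation, both rose, TAP1 from 2251, 2240 and 2224 to 3323, 3953 and 3744 normalized counts and TAP2 from 969, 1023 and 1059 to 1526, 1500 and 1517. Their log2 fold changes were 0.71 and 0.58 (limma adjusted p = 3.6e-04 and 5.1e-04). CFTR, an ABC protein that works as a chloride channel, had 5.52 to 19.9 normalized counts in parental 786-O against 3.23 to 18.5 in the FOXD1null-labelled libraries and did not pass.

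Each of 10 called members was set beside the other tested genes within 5 Mb on either side to describe its position. ABCC3 lay among 109 such genes with a median log2 fold change of -0.46, of which 56 fell and 5 rose, and its own interval from -1.38 to -1.04 lay below that median. Near ABCA3, 46 of 182 genes rose and 7 fell, with a median of 0.18, well below its own interval from 1.04 to 1.71. The shares of all genes were 16.3% higher and 17.1% lower. For the other 8 of these members the neighbourhood median was between -0.14 and 0.13 and outside their own intervals. These members were chosen because they passed, so their intervals exclude no change. A median close to no change lies outside such an interval by that choice, and the spread of the neighbours was not compared. ABCG2 was the member that went most against its surroundings, with 13 of 35 neighbours lower and 1 higher.

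**Figure D5:**
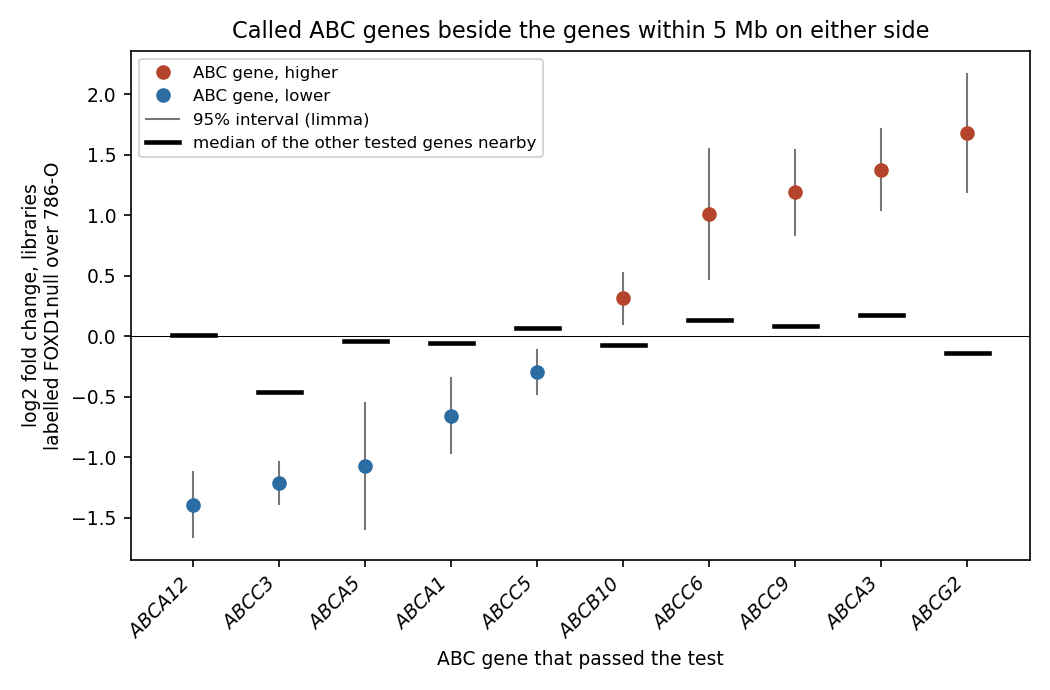
Points give the log2 fold change of 10 called ABC genes with 95% intervals from limma, and black bars the median of the other tested genes within 5 Mb on either side. The bar of ABCC3 is the lowest at -0.46. Bars lie outside the interval of the ABC gene for each of the 10, which for bars close to no change follows from choosing genes that passed.

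Members that are neighbours in the genome were set side by side. ABCC1 and ABCC6 lie side by side on chromosome 16, and ABCC6 passed as higher at 1.01 while ABCC1 did not pass at 0.18. ABCC5 and ABCF3 lie within the same megabase of chromosome 3, ABCC5 passing as lower at -0.30 and ABCF3 not passing at -0.08. ABCF2 and ABCB8 lie near each other on chromosome 7 and had log2 fold changes of 0.12 and 0.14, below the median of 0.24 of the 73 genes around them.

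After a smooth trend with exon length was taken out of each library, an alternative chosen after seeing the data, 7 members passed as higher and 7 as lower, where 17.8% and 18.1% of all genes passed. The additions were ABCC1 as higher, at 0.21, and ABCA2 as lower, at -0.31, and the 12 called members stayed called. Under this setting and 15 others, 7 of the 12 called members passed each time, namely ABCA12, ABCC3, ABCA5, ABCA1, ABCC9, ABCA3 and ABCG2.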

How the data were processed

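Per the labels and the study's methods, RNA of 786-O and of 786-O FOXD1null (3 libraries each) was read in 2 × 150 bp mode. The authors used Trimmomatic 0.36 for trimming, STAR 2.5.2b for alignment against hg38, featureCounts for unique reads over exons and DESeq2 for size factors and tests. The deposited normalized signal is the count of a gene divided by 1 size factor per library. Other deposited columns hold group means, the authors' log2 fold change, their p-value and adjusted p-value, and the difference of the means as an other value. None of these was used.

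Each value was a whole multiple of 1 read within 0.001 (100% of values), so that reads were recovered for edgeR 4.0.16 and DESeq2 1.42.0 as alternatives. Lines were compared with limma 3.58.1 under R 4.3.3 and a trended prior, on normalized counts after adding 1 and taking log2. A mean of at least 10 was asked of a gene, which 16901 genes met, and the threshold was 0.05 after Benjamini-Hochberg adjustment. Fold changes are on that scale, where adding 1 shrinks changes of low genes. Set beside DESeq2, those of low genes differed in both directions. The log2 fold change was -4.01 against -2.70 from DESeq2 for KCNJ8, and 1.68 against 1.71 for ABCG2. The step was tested on simulated counts, which held no trend with exon length. Of 16922 genes, 175 had no name here. Names, exons and positions came from GENCODE release 44 on the same build, which need not be the authors' annotation. Copies of ABCC6 were aligned with BLASTN 2.17.0.

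Members and lists were chosen with earlier results of these data known. By the rule every member is named (2 of them are not reported here), those that passed with every library's value, those with a mean of at least 1000 that did not pass with the 95% interval of the difference, and of each list the 2 largest rises and 2 largest falls that passed. NR1H2, NR1H3 and CFTR were named beside this rule after their values were seen, and so were the pseudogenes. Intervals cover the spread between these libraries. Alternatives were the pseudocount, the filter, the scaling, the tool, a block for the replicate number, each library left out and, added after seeing the data, removal of a loess trend with exon length.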

Additional observations from a re-analysis of the deposited data

How the results depend on the processing

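With pseudocounts of 5 or 0.5, no filter, a mean of at least 50, TMM scaling, or edgeR, each of the members tested kept its direction and its side of the threshold. DESeq2 added ABCC2 as lower, and with equal library totals, which moved the median of all genes by -0.09 on the log2 scale, ABCC2, ABCA2 and ABCE1 passed as lower and ABCB10 no longer passed. The sign turned with equal totals for ABCF1 (-0.044), ABCD4 (-0.021) and the pseudogene ABCA11P (-0.021), none of which passed. Leaving out 1 library at a time, ABC transporter genes called higher numbered 3 to 10 and those called lower 4 to 11, beside 1798 to 4635 higher and 1823 to 4667 lower among all genes. Over the same fits the log2 fold change ran from -0.75 to 0.028 for ABCA13, -0.15 to 0.0027 for ABCF3, -0.090 to 0.016 for ABCB6, -0.10 to 0.13 for ABCF1, -0.11 to 0.46 for ABCA15P and -0.12 to 0.27 for ABCA11P, so that their sign rests on single libraries. The cause was not tested. Where a group was left with 2 libraries, limma pooled the spread of both groups. FOXD1 kept its direction and passed each time.

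Replicate numbers did not pair the libraries. Deviations from the group means of same-numbered libraries correlated at -0.25, -0.23 and 0.01. With the replicate number as a block, 6 members passed as higher and 5 as lower, beside 2391 and 2489 of the 16901 genes, ABCC5 no longer passing (adjusted p = 0.055 from limma), and no other member changed its call. At this depth the counts of ABCG2, ABCC6, ABCA13 and KCNJ8 were low, and small changes of such genes would not be detected.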
